A study of Arabidopsis thaliana with 8 samples.

Results

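A few plant miRNAs feed back on the machinery that makes and uses all other miRNAs, and they were followed here in *A. thaliana* seedlings given the brassinosteroid 24-epibrassinolide (EBR). They are miR162a, miR168a and miR403, selected on their name and on their measured values, as every miRNA of the families miR162, miR168 and miR403 that lay above 0.01, the lowest value in the data, on at least 1 array. This gave 3 of the 161 miRNAs measured. The array data hold 1 row for each family, and all 3 rows were above 0.01 on all 8 arrays, with 0.719 as their lowest value, so no row of these families fell outside the rule. Being above 0.01 is what chose them and is not a result.

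In plants, DICER-LIKE 1 (DCL1) cuts miRNA precursors in the nucleus, and the mature miRNA is loaded into an ARGONAUTE protein, for most miRNAs AGO1, which then cleaves or represses the matching mRNA. miR162 targets the mRNA of DCL1 itself, miR168 that of AGO1, and miR403 that of AGO2, a protein best known for antiviral defence. Each of the 3 thus belongs to a feedback loop in which a small RNA limits the enzyme or effector that small RNAs depend on. Brassinosteroids are growth-promoting steroid hormones of plants, and EBR is a highly active member of the class.

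The loci carry the names MIR162a (AT5G08185), MIR162b (AT5G23065), MIR168a (AT4G19395), MIR168b (AT5G45307) and MIR403 (AT2G47275) in the RefSeq gene table of assembly TAIR10.1. Of these, MIR162a, MIR162b and MIR168b lie on chromosome 5, MIR168a on chromosome 4 and MIR403 on chromosome 2, and none of the 5 overlapped another gene in the table. Mature miR162 is the same from both of its loci, as is mature miR168, so the values of miR162a and miR168a cannot be assigned to 1 locus. The targets DCL1 (AT1G01040), AGO1 (AT1G48410) and AGO2 (AT1G31280) all lie on chromosome 1, where AGO2 is the direct neighbour of AGO3 (AT1G31290). The mRNAs of the targets were not measured on these arrays, so nothing is given here on whether DCL1, AGO1 or AGO2 changed.

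Seedlings of ecotype Columbia (Col-0), all 7 days old and grown in liquid sucrose medium under continuous light, were compared in 4 groups with 2 arrays each. They were exposed to 10 nM EBR for 180 min (EBR180), to mock solution with the solvent DMSO for 180 min (mock180), to 10 nM EBR for 30 min (EBR30), or to mock solution for 30 min (mock30). The series description speaks of 2 independent experiments at each time, and all values here are limited in precision by there being 2 arrays a group. Whole seedlings were used, so a change in how many cells of a type there were and a change in the amount of miRNA per cell cannot be told apart, and an array of miRNAs holds no marker genes with which the tissue could be checked.

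The deposited value of each miRNA is a linear ratio to its own median over the 8 arrays, which means that 1 is the middle of that miRNA's own range and that the values do not show which of the 3 was more abundant. Of the 161 miRNAs, 43 were above 0.01 on all arrays and were tested together. The arrays also differed as a whole. The median ratio of the 43 was 1.12 and 1.02 in EBR180, 1.07 and 1.08 in mock180, 0.970 and 0.988 in EBR30 and 0.818 and 0.931 in mock30. In log2 units the 4 arrays at 180 min had medians 0.22 above those of the 4 at 30 min (exact permutation test, two-sided, p = 0.0286, its smallest possible value). An offset of this kind moves all miRNAs of an array together, so changes are also given once the median of every array had been set to the same level (centring).

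The ratio of miR162a, the regulator of DCL1, was 1.14 and 1.02 in EBR180, 1.09 and 0.988 in mock180, 1.01 and 0.964 in EBR30 and 0.798 and 0.719 in mock30. The mock30 arrays were thus the lowest pair and lay below all other arrays, while each of the other groups overlapped its neighbour in the order of the means. A low mock30 pair was common among the tested miRNAs. It lay entirely below the EBR30 pair for 28 of 43 (65.1%) and below the mock180 pair for 33 of 43 (76.7%). How many had mock30 below all other arrays was not counted. The means were 1.08 ± 0.0851 (SD, n = 2 arrays) in EBR180, 1.04 ± 0.0741 in mock180, 0.988 ± 0.0338 in EBR30 and 0.758 ± 0.0558 in mock30. From its lowest to its highest array miR162a spanned 1.59-fold, and it ranked 15 by this span among the 43 tested miRNAs, whose median span was 1.50-fold.

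For miR168a, the regulator of AGO1, the ratio was 1.01 and 0.991 in EBR180, 1.02 and 1.09 in mock180, 0.923 and 1.02 in EBR30 and 0.821 and 0.931 in mock30. It was highest in mock180 and lowest in mock30, and the EBR30 pair overlapped the pairs of EBR180 and of mock30. The means were 1.00 ± 0.0122 (SD, n = 2 arrays) in EBR180, 1.06 ± 0.0487 in mock180, 0.971 ± 0.0679 in EBR30 and 0.876 ± 0.0783 in mock30. With a span of 1.33-fold over the 8 arrays miR168a ranked 37 of 43, near the narrow end of a range that reached from 1.16 to 2.67.

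The ratio of miR403, the regulator of AGO2, was 1.22 and 0.935 in EBR180, 1.16 and 1.08 in mock180, 0.996 and 1.00 in EBR30 and 0.818 and 0.960 in mock30. Its highest array and its second lowest array were therefore the duplicates of a single group, EBR180, while the EBR30 arrays were nearly equal. The means were 1.08 ± 0.199 (SD, n = 2 arrays) in EBR180, 1.12 ± 0.0582 in mock180, 1.00 ± 0.00508 in EBR30 and 0.889 ± 0.100 in mock30. The EBR180 duplicates of miR403 differed by 0.38 on the log2 scale, the widest gap of the 43 tested miRNAs in that group, where the median gap was 0.14. In EBR30 they differed by 0.01, which ranked 41. The span over the 8 arrays was 1.49-fold, with rank 24.

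**Figure D1:**
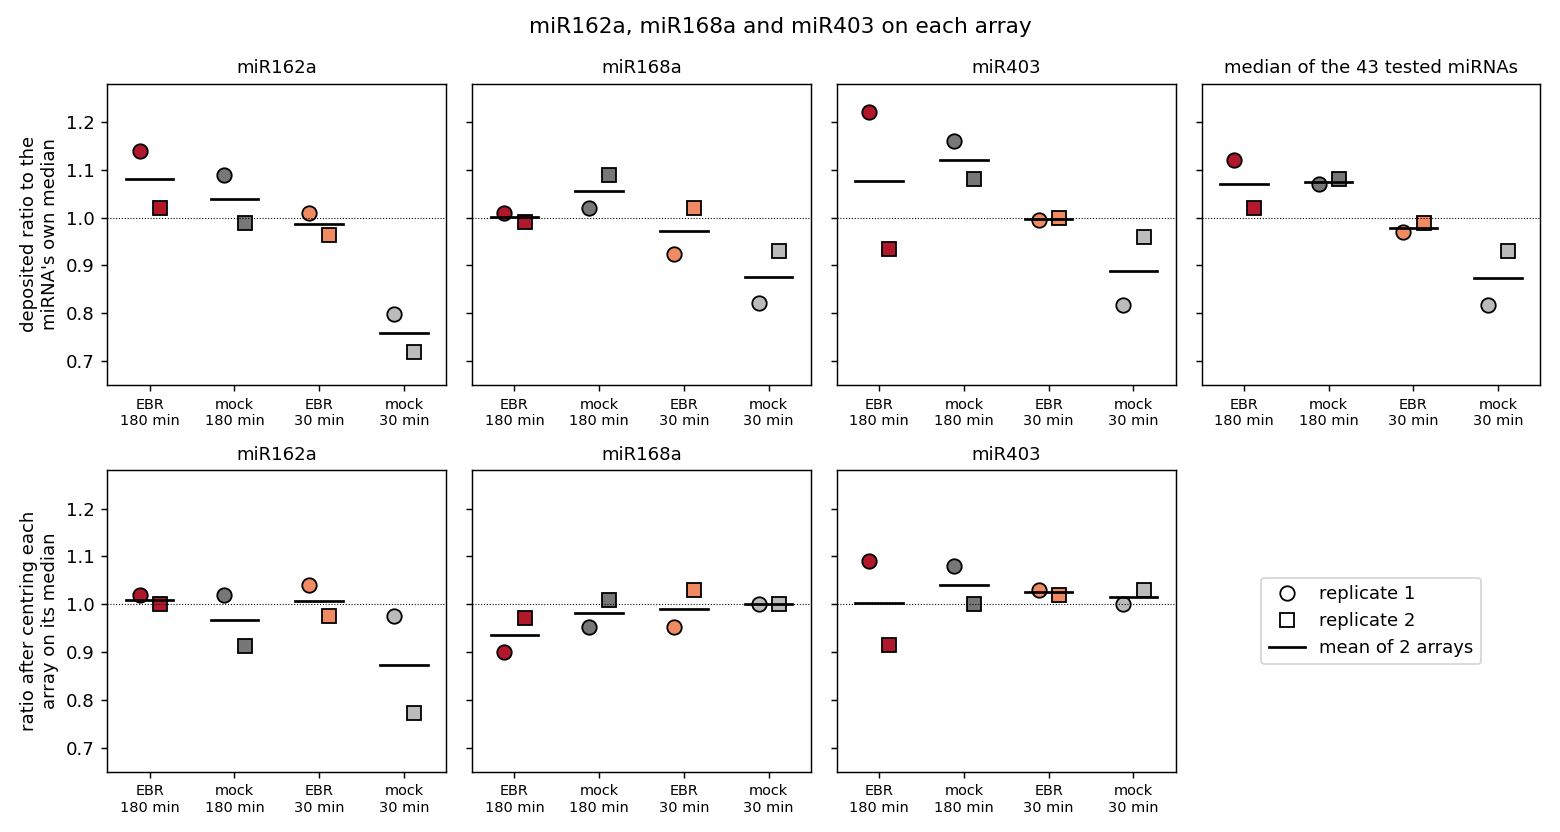
Ratio of miR162a, miR168a and miR403 on each of the 8 arrays, as deposited (upper row, with the median of the 43 tested miRNAs on each array at the right) and after centring (lower row); circles and squares are replicates 1 and 2, and lines are means of 2 arrays. In the upper row mock30 has the lowest mean for all 3 miRNAs and for the array median, though of the 3 only miR162a has both mock30 arrays below all others. How many of the 43 share that order was not counted. In the lower row only miR162a keeps an array far below 1, at 0.772.

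To ask whether EBR changed these miRNAs after 30 min, EBR30 was set against mock30 in a linear model over all 43 miRNAs (limma, Benjamini-Hochberg adjustment). miR162a rose by 0.38 on the log2 scale (1.30-fold, 95% interval 0.14 to 0.63, adjusted p = 0.0150), and both EBR30 arrays lay above both mock arrays. This is 1 of the 3 miRNAs, against 16 of 43 (37.2%) called in this comparison over all tested miRNAs, 13 of them higher (30.2%). miR168a and miR403 did not pass the threshold, with log2 fold changes of 0.15 (interval -0.10 to 0.40, adjusted p = 0.332) and 0.17 (interval -0.07 to 0.42, adjusted p = 0.257). Their differences were close to the median of all 43, which was 0.18. For miR403 the EBR30 pair, at 0.996 and 1.00, did not overlap the lower mock30 pair, at 0.818 and 0.960, an order seen for 28 of 43 miRNAs (65.1%). For miR168a the pairs overlapped.

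After centring, the log2 fold change at 30 min was 0.22 for miR162a (adjusted p = 0.170), -0.016 for miR168a (adjusted p = 0.870) and 0.009 for miR403 (adjusted p = 0.944), so none of the 3 passed, and that of miR168a had changed sign. The centred fit called 8 of 43 (18.6%). The call of miR162a was also lost after quantile normalization (0.22, adjusted p = 0.242), without EBR30 replicate 1 (0.35, adjusted p = 0.115) and without mock30 replicate 2 (0.31, adjusted p = 0.0516), as well as with its own spread (adjusted p = 0.0830) or with the 4 miRNAs at 0.01 on some arrays added (adjusted p = 0.0626). The centred ratio was 1.04 and 0.976 in EBR30 and 0.975 and 0.772 in mock, so 1 array, mock30 replicate 2, lay far below the rest. Without this array the centred log2 fold change was 0.05. The array was left out after seeing that it was the lowest, a choice that could only shrink the difference.

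At 180 min none of the 3 differed between EBR and mock past the threshold, where 7 of 43 miRNAs (16.3%) did. The log2 fold change was 0.06 for miR162a (interval -0.19 to 0.30), -0.08 for miR168a (interval -0.33 to 0.17) and -0.07 for miR403 (interval -0.32 to 0.17), with an adjusted p of 0.735 for each. With 2 arrays a group, the values are compatible with any change within these intervals. The intervals use 1 common standard error of 0.125 for all miRNAs. The standard error from its own spread was larger for miR403 (0.162), and smaller for miR162a (0.097) and miR168a (0.089). For miR403 the values are thus compatible with a wider range of change. The EBR180 arrays of miR168a, at 1.01 and 0.991, both lay just below the mock arrays, at 1.02 and 1.09, an order found for 14 of 43 miRNAs (32.6%), and after centring these pairs overlapped. The centred log2 fold changes were 0.07 for miR162a (adjusted p = 0.622), -0.07 for miR168a (adjusted p = 0.435) and -0.06 for miR403 (adjusted p = 0.554), where 13 of 43 (30.2%) were called. For miR403 the direction depended on 1 array. Its log2 fold change was 0.12 without EBR180 replicate 2 and -0.26 without EBR180 replicate 1.

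The difference between the EBR effects at the 2 times was tested directly. It was -0.33 for miR162a (interval -0.68 to 0.02, adjusted p = 0.163), -0.23 for miR168a (adjusted p = 0.272) and -0.25 for miR403 (adjusted p = 0.242). None of the 3 passed, against 11 of 43 (25.6%) over all tested miRNAs, whose median difference was -0.24. A response of miR162a limited to 30 min was thus not shown. After centring the differences were -0.15, -0.05 and -0.07, in the same order of miRNAs. None of the 3 passed there, where 15 of 43 (34.9%) did.

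**Figure D2:**
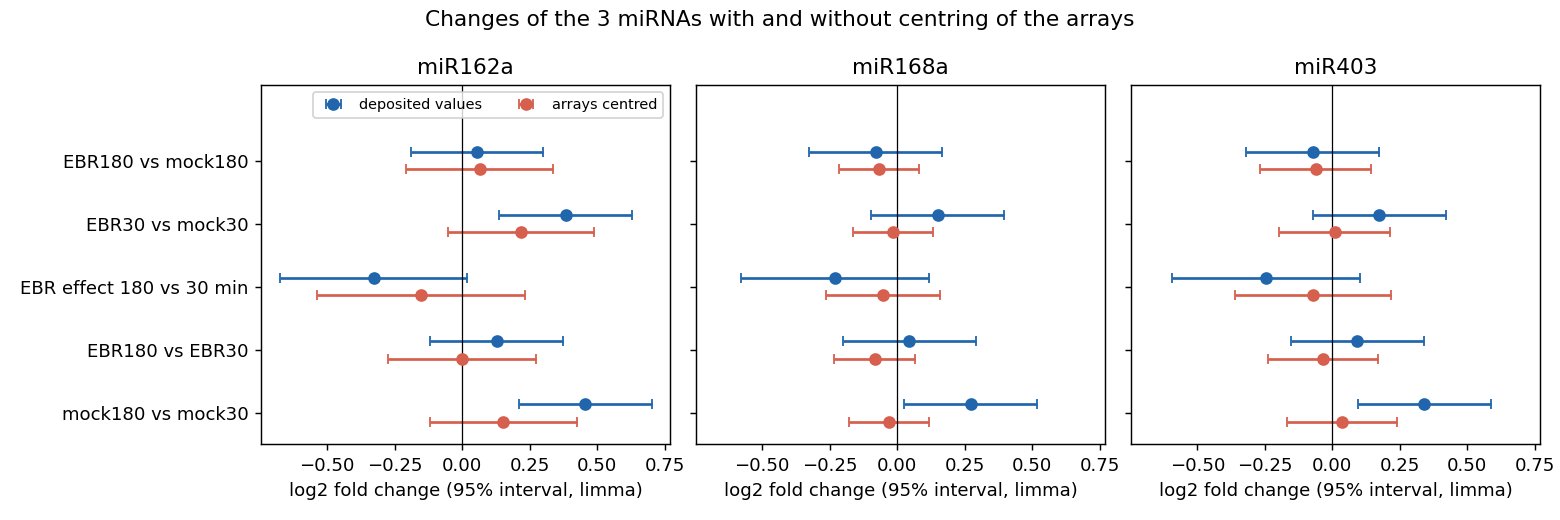
Log2 fold change (points) with its 95% interval (bars, limma) for the 5 comparisons and the 3 miRNAs, with the deposited values in blue and after centring of the arrays in red. With the deposited values, miR162a in EBR30 against mock and all 3 miRNAs in mock180 against mock30 have intervals above 0, and after centring every interval includes 0.

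All 3 rose between 30 and 180 min in mock with the deposited values, while after centring or quantile normalization none of them was called and miR168a had the opposite sign. As deposited, the log2 fold change was 0.46 for miR162a (1.37-fold, adjusted p = 0.00122), 0.34 for miR403 (1.27-fold, adjusted p = 0.0139) and 0.27 for miR168a (1.21-fold, adjusted p = 0.0476), and for each of the 3 the mock180 pair was entirely above the mock30 pair, an order found for 33 of 43 miRNAs (76.7%). In this comparison 28 of 43 miRNAs (65.1%) were called, 25 of them higher (58.1%), and the median log2 fold change was 0.29. The values of miR403 and miR168a were close to that median and that of miR162a was above it, at rank 12 of 43 by size. After centring the log2 fold change was 0.15 for miR162a (adjusted p = 0.358), 0.036 for miR403 (adjusted p = 0.760) and -0.031 for miR168a (adjusted p = 0.734), with none of the 3 past the threshold where 15 of 43 (34.9%) were.

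With the deposited values the call of miR162a in mock held whichever array was left out. That of miR403 was lost without mock180 replicate 1 (0.29, adjusted p = 0.0790) or mock30 replicate 1 (0.22, adjusted p = 0.192), and that of miR168a without mock180 replicate 1 (0.32, adjusted p = 0.0586), mock180 replicate 2 (0.23, adjusted p = 0.166) or mock30 replicate 1 (0.18, adjusted p = 0.232). The call of miR168a was lost as well without either EBR30 array (adjusted p = 0.0579 for each), although these are not part of the comparison and enter only through the shared spread.

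With EBR the differences between the times did not pass the threshold. EBR180 exceeded EBR30 by 0.13 for miR162a (adjusted p = 0.600), 0.09 for miR403 (adjusted p = 0.729) and 0.04 for miR168a (adjusted p = 0.843) on the log2 scale, so that none of the 3 passed, against 8 of 43 (18.6%). The median over the 43 was 0.10. Both EBR180 arrays of miR162a, at 1.14 and 1.02, were above both EBR30 arrays, at 1.01 and 0.964, as for 22 of 43 miRNAs (51.2%), while for miR168a and miR403 the pairs overlapped. After centring the differences were below 0 for miR168a (-0.08) and miR403 (-0.04) and nil for miR162a. None of the 3 passed there, where 12 of 43 (27.9%) did. Whether the change with time differed between EBR and mock is the same contrast as that between the EBR effects at the 2 times, which none of the 3 passed.

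**Figure D3:**
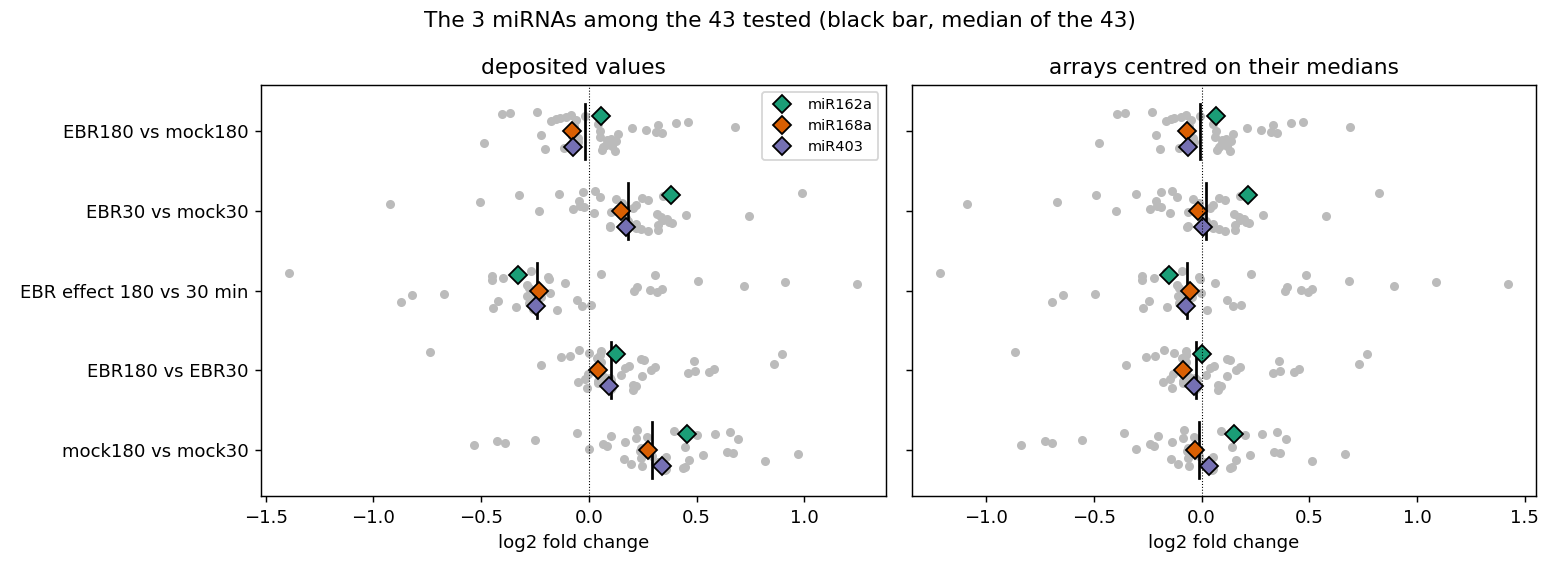
Log2 fold change of miR162a, miR168a and miR403 (diamonds) among the 43 tested miRNAs (grey points) in the 5 comparisons, with the deposited values at the left and after centring at the right; black bars mark the median of the 43. miR168a and miR403 stay near the bar in each comparison, and miR162a lies above it in EBR30 against mock (0.38 against a median of 0.18) and in mock180 against mock30 (0.46 against 0.29).

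Over all 4 groups, as in the one-way analysis named in the methods, limma's moderated F-test called miR162a (adjusted p = 0.000364) but not miR403 (adjusted p = 0.0616) or miR168a (adjusted p = 0.193), while 27 of 43 (62.8%) were called in all. With each miRNA's own spread, which is the plain one-way analysis, the adjusted p was 0.0609, 0.338 and 0.185 for miR162a, miR403 and miR168a. The F-test after centring gave 0.312, 0.905 and 0.482, where 21 of 43 (48.8%) were called. The moderated model gave all miRNAs 1 common standard error of 0.125 for a difference of 2 groups. With its own spread that standard error was 0.097 for miR162a, 0.089 for miR168a and 0.162 for miR403, whose EBR180 duplicates lay far apart.

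A difference between members on the same array is free of any array-wide offset. The log2 ratio of miR162a minus that of miR168a was 0.18 and 0.04 in EBR180, 0.10 and -0.14 in mock180, 0.13 and -0.08 in EBR30 and -0.04 and -0.37 in mock30. Its mean was highest in EBR180 and lowest in mock30, but the pairs of EBR and mock overlapped at both times. For miR162a minus miR403 the values were -0.09 and 0.13 in EBR180, -0.09 and -0.13 in mock180, 0.02 and -0.06 in EBR30 and -0.04 and -0.42 in mock30. The array at -0.42, mock30 replicate 2, stood apart from the other 7 in both of these differences. Between the times, the differences changed by 0.13 for miR162a minus miR168a, 0.08 for miR162a minus miR403 and -0.06 for miR168a minus miR403, and over these 3 comparisons the adjusted p was 0.629 for each (two-sided exact permutation tests of 4 arrays against 4, raw p = 0.371, 0.629 and 0.514). Between EBR and mock at 1 time no such test can fall below 0.333. Unequal change among the 3 miRNAs was thus not shown by these tests, which take the arrays as unpaired.

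**Figure D4:**
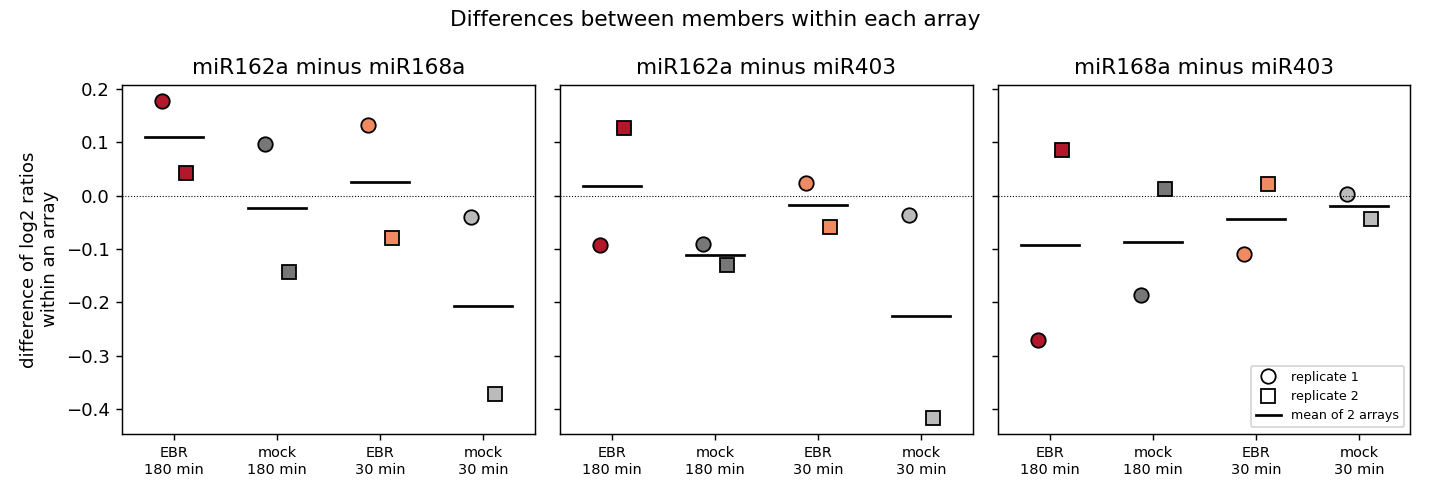
Difference of the log2 ratios of 2 members on the same array, for the 3 pairs of members and the 4 groups; circles and squares are replicates 1 and 2, and lines are means of 2 arrays. Each ratio is relative to the miRNA's own median, so 0 does not stand for equal abundance. The lowest points, at -0.37 and -0.42, belong to mock30 replicate 2.

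The miRNAs whose log2 ratios ran most like those of each member over the 8 arrays were sought among the other 40 tested. For miR162a these were miR163 (Pearson r = 0.96), miR156h (0.95) and miR170 (0.90), for miR168a miR824 (0.96), miR157d (0.95) and miR161.1 (0.95), and for miR403 miR167a (0.94), miR775 (0.89) and miR173 (0.88). These values are descriptions over 8 arrays that share an array-wide offset, and the median r with all 40 was 0.72, 0.70 and 0.76 for miR162a, miR168a and miR403. After centring, miR163 (0.89), miR156h (0.88) and miR170 (0.60) were again the nearest to miR162a. For miR168a none of the first 3 was among the nearest after centring, and for miR403 the highest value was 0.46. Among the members themselves r was 0.61 for miR162a with miR168a, 0.72 for miR162a with miR403 and 0.76 for miR168a with miR403, and after centring -0.48, 0.04 and -0.45.

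Other miRNAs bound up with the same machinery were followed as 2 small lists. The first held miRNAs that direct the production of secondary siRNAs or target the PPR genes from which many of these arise: of 6 on the array miR161.1, miR161.2, miR173, miR390a and miR400 were tested, and miR828 was at 0.01 on all arrays. In mock 4 of the 5 were called higher at 180 than at 30 min, against 25 of 43 (58.1%) over all tested miRNAs. The median of their log2 fold changes was 0.45, against 0.29 over all tested miRNAs. Not called was miR390a, which is loaded into AGO7 (0.09, adjusted p = 0.534). With the deposited values only miR161.2 was called for EBR against mock, lower in EBR180 (-0.49, adjusted p = 0.00291) and higher in EBR30 (0.39, adjusted p = 0.0150). Over all tested miRNAs 7 of 43 (16.3%) were called at 180 min and 16 of 43 (37.2%) at 30 min. With EBR, none of the 5 was called between the times, against 8 of 43 (18.6%) over all tested miRNAs. After centring 3 of the 5 were called higher in mock180 than in mock30 (over all tested miRNAs 7 of 43, 16.3%). In EBR180 against mock180 2 were called lower (6 of 43, 14%), and none was called for EBR30 against mock30 (8 of 43, 18.6%).
The second list held miRNAs made by DCL4, a relative of DCL1, together with miR838, whose gene lies inside DCL1 (AT1G01046 within AT1G01040 in the gene table). Of its 5 rows miR838, miR839 and miR869.1 were at 0.01 on all arrays, so the miRNA from the DCL1 transcript gave no value that could be compared. miR822 and miR869.2 were tested. With the deposited values neither was called for EBR against mock at 180 min (-0.15 and -0.24) or at 30 min (0.25 and 0.03). Over all tested miRNAs 7 of 43 (16.3%) and 16 of 43 (37.2%) were. In mock miR822 was called higher at 180 than at 30 min by 0.27 (adjusted p = 0.0493), about as much as miR168a, where 25 of 43 (58.1%) were called higher. After centring neither was called in mock, where 15 of 43 (34.9%) were. miR869.2 was called lower after centring in EBR180 than in mock180 (-0.23, adjusted p = 0.0126), as were 6 of 43 (14%) over all tested miRNAs. Both were called lower in EBR180 than in EBR30 only after centring, against 5 of 43 (11.6%) over all tested miRNAs. With the deposited values neither was called in EBR180 against EBR30, where 8 of 43 (18.6%) were. The values were -0.13 for miR822 (adjusted p = 0.600) and -0.04 for miR869.2 (adjusted p = 0.843).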

How the data were processed

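Total RNA of whole seedlings carried a Cyanine 3 label and was hybridised to single-colour Agilent arrays of a miRBase design, and the submitters' processing notes name Agilent Feature Extraction 9.1. The authors deposited 1 ratio per miRNA and array from GeneSpring, taken against the median over the samples. How background was corrected, how arrays were scaled and where the value 0.01 comes from is not given in the sources used here, and unequal scaling of the groups would shift every ratio of a group.

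The log2 ratios of the 43 miRNAs above 0.01 on all 8 arrays were fitted with a mean for each of 4 groups in limma 3.58.1 (R 4.3.3) with empirical Bayes moderation, and Benjamini-Hochberg adjustment covered the 43, with a threshold of 0.05. A further 114 miRNAs at 0.01 on all arrays and 4 at 0.01 on some were left out. Array medians, and differences between members, went through exact permutation tests (two-sided). The fit was tested on simulated data with an equal spread for all miRNAs and no array-wide offset. That test does not bear on how the offsets of these arrays affect the calls. All members were named, with the 3 tested miRNAs of highest Pearson r for each, and other miRNAs come from 2 lists. Members and lists were chosen with earlier results of these data known. The alternatives were centring, quantile normalization, the replicate block, each miRNA's own spread, the inclusion of the 4 miRNAs, and leaving out single arrays, with the spread of a group left with 1 array taken from the others. Centring without 1 mock array was added after seeing the data.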

Additional observations from a re-analysis of the deposited data

How the results depend on the processing

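With the arrays centred the log2 fold change of miR162a was 0.22 in EBR30 against mock30, 0.15 in mock180 against mock30 and -0.000351 in EBR180 against EBR30, and its F-test gave an adjusted p of 0.312. Quantile normalization gave 0.22, 0.17 and an adjusted p of 0.318. Centring without mock30 replicate 2, a setting chosen after seeing the data, gave 0.05 in EBR30 against mock30 and -0.016 in mock180 against mock30. For miR168a centring and quantile normalization gave -0.016 and -0.010 in EBR30 against mock30, -0.031 and -0.037 in mock180 against mock30, and -0.084 and -0.091 in EBR180 against EBR30. For miR403 they gave 0.036 and 0.047 in mock180 against mock30 and -0.035 and -0.095 in EBR180 against EBR30. None of these was past the threshold. With each miRNA's own spread the values stayed at 0.38 for miR162a in EBR30 against mock30, 0.27 for miR168a and 0.34 for miR403 in mock180 against mock30, and none of them passed, nor did the F-test of miR162a (adjusted p = 0.0609). With the 4 miRNAs at 0.01 on some arrays included, miR162a at 0.38 in EBR30 against mock30 and miR403 at 0.34 in mock180 against mock30 did not pass. The causes of these shifts were not tested.

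The numbers of called miRNAs moved too. At 30 min 16 of 43 passed in EBR against mock, and 8 did so after centring, 6 after quantile normalization, 2 with own spreads and 4 with the 4 miRNAs included. At 180 min 7 passed, and these settings gave 13, 11, 0 and 1. For the difference between the EBR effects 11 passed, and the same settings in the same order gave 15, 14, 4 and 6. For EBR180 against EBR30 8 passed, and they gave 12, 11, 2 and 2. For mock180 against mock30 28 passed, and they gave 15, 10, 22 and 27. For the F-test 27 passed, and they gave 21, 22, 9 and 16.

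With 1 array left out at a time, the called log2 fold changes lay between 0.31 and 0.46 for miR162a in EBR30 against mock30, between 0.18 and 0.36 for miR168a and between 0.22 and 0.46 for miR403 in mock180 against mock30, and the calls lost are named in the report. The adjusted p of miR403 in the F-test lay between 0.0172 and 0.398, and it passed without EBR180 replicate 2 or mock30 replicate 2. Small differences that were not called changed sign in this way: miR162a (-0.025 to 0.14) and miR403 (-0.26 to 0.12) in EBR180 against mock180, and miR168a (-0.027 to 0.12) and miR403 (-0.10 to 0.28) in EBR180 against EBR30. The shift of the array medians between the times lay between 0.16 and 0.25 (p up to 0.0571), and that between EBR180 and mock180 between -0.078 and 0.057. The shift between EBR30 and mock30 lay between 0.072 and 0.258. The numbers of called miRNAs lay between 5 and 19 for EBR30 against mock30 (5 without EBR30 replicate 1, 6 without mock30 replicate 1, 9 without EBR30 replicate 2), between 2 and 9 for EBR180 against mock180 (2 without EBR180 replicate 1 or mock180 replicate 2), between 7 and 13 for the difference of the EBR effects (7 without EBR30 replicate 1) and between 4 and 11 for EBR180 against EBR30 (4 without EBR180 replicate 1).

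The replicate block changed no call of the 3 miRNAs. It left the log2 fold change of miR162a in EBR30 against mock30 at 0.38 (adjusted p = 0.0141) and the counts at 16, 7, 11, 28, 8 and 27 for EBR30 against mock30, EBR180 against mock180, the difference of the EBR effects, mock180 against mock30, EBR180 against EBR30 and the F-test. Deviations of same-numbered arrays from their group means had an r between 0.11 and 0.36 over the 6 pairs of groups, a weak hint from the data and not from the design. As the files hold no signal over background, the precision of a ratio could be judged only from duplicates.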

Other observations

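A pattern that belongs to no comparison of the study concerned the replicate numbers. miR162a was higher on the replicate 1 array than on the replicate 2 array in all 4 groups. For miR168a this held in 1 group and for miR403 in 2. How many of the 43 tested miRNAs share the order of miR162a was not counted, so the order is not shown to be particular to miR162a. Read by replicate number, the within-array difference of miR162a minus miR168a was higher with EBR than in mock in all 4 same-numbered pairs of arrays, by 0.08 and 0.19 on the log2 scale at 180 min and by 0.17 and 0.29 at 30 min. It was also higher at 180 than at 30 min in all 4, by 0.045 and 0.12 with EBR and by 0.14 and 0.23 in mock. For miR162a minus miR403 the difference between EBR and mock read in this way was -0.001 and 0.26 at 180 min and 0.06 and 0.36 at 30 min, and for miR168a minus miR403 the sign was positive in replicate 2 and negative in replicate 1 at both times. How often differences between other tested miRNAs keep the same sign in this reading was not counted either. The sources used here do not say that a number marks a shared experiment. The pattern was seen after the values were known, and it was not tested.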
